A study of Mus musculus with 30 samples.

Results

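Loss of the second *Bin1* copy was followed in 21 microglial libraries, one from each numbered mouse, chosen from the 30 libraries of the series by the genotype in their labels. All 21 mice carried Cre. The 10 Homo mice were Bin1 flox/flox::Cx3Cr1-Cre+ (5 female and 5 male) and the 11 Het mice were Bin1 wt/flox::Cx3Cr1-Cre+ (5 female and 6 male), so that by their labels both genotypes shared Cre and 1 lost copy and differed in the second; the *Bin1* level of 2 Het libraries went against their label, as given below. The 9 WT mice (Bin1 wt/flox::Cx3Cr1-Cre-, 4 female and 5 male) are given only as a reference level. Per the methods of the study, CD11b+ CD45med cells were sorted from the brains of mice aged 3 months, whereas the growth protocol in the labels is one for neonatal cultures; the methods of the study were followed here. Cre was driven by the *Cx3cr1* locus, which is also active in other myeloid cells, and the Cre allele takes the place of 1 *Cx3cr1* copy.

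BIN1 is an N-BAR protein, which binds and bends lipid membranes and works with dynamin and clathrin adaptors in endocytosis and endosomal recycling. The gene lies in a major risk locus for late-onset Alzheimer's disease, and in the brain it is expressed by microglia, oligodendrocytes and neurons. Microglia are the resident macrophages of the brain, which take up debris, prune synapses and release extracellular vesicles.

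Levels are FPKM, fragment counts set relative to the length of the transcript and to the mapped fragments of the library. Differences are Homo minus Het on the log2 scale of scaled FPKM plus 0.1, adjusted for sex, with limma's adjusted p over the 16964 genes whose mean FPKM reached 0.1. A differentially expressed gene (DEG) had to change more than 1.5-fold at an adjusted p below 0.05. Depth relative to the median of the 21 libraries was between 0.719 and 1.51 in Homo and between 0.776 and 1.14 in Het, the absolute depth is unknown, and the rank correlation between any pair of libraries across genes was between 0.920 and 0.988. The microglial markers *P2ry12* and *Tmem119* were high in both genotypes, with mean levels of 4595 and 2145 FPKM in Homo and of 4387 and 2157 FPKM in Het libraries.

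*Bin1* (ENSMUSG00000024381, chromosome 18 of GRCm38, 32377230 to 32435737) was lower in Homo than in Het microglia and was the 1 DEG among all genes tested (0.00589%). Homo libraries had a mean of 45.4 ± 6.50 FPKM (SD, n = 10), Het libraries of 126 ± 42.0 (SD, n = 11) and WT libraries of 256 ± 17.2 (SD, n = 9), which puts Homo at 17.8% and Het at 49.3% of the WT mean. The difference between Homo and Het was -1.37 on the log2 scale (SE 0.20, 95% interval -1.79 to -0.95, limma adjusted p = 0.012). Over the FPKM as deposited, the means differed by -80.7, with a two-sided exact permutation p of 0.000189 when genotypes were exchanged within each sex.

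The 5 female Homo libraries had 40.3, 43.3, 43.2, 39.6 and 39.5 FPKM of *Bin1*, and the 5 male ones 55.6, 54.4, 53.3, 45.2 and 39.9. Of the female Het libraries, 4 had 152, 159, 152 and 164 FPKM, and Het-F-0206 had 42.7. Among the 6 male Het libraries the level was 120.2, 130.1, 157, 117 and 142 FPKM in 5, and 51.8 in Het-M-0199. The libraries labelled Het-F-0206 and Het-M-0199 therefore lay within the Homo range, at 16.7% and 20.3% of the WT mean, and the groups overlapped. The results below are given as labelled, and values without these 2 libraries stand beside those that rest on them.

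Without these 2 libraries, the remaining 9 Het libraries had 144 ± 17.3 FPKM of *Bin1* (SD, n = 9), which was 56.1% of the WT mean, and the groups did not overlap. *Bin1* was then the 1 gene of 16964 (0.00589%) whose Homo and Het libraries were fully apart, against 0 with all libraries. The difference was -1.66 (SE 0.10, 95% interval -1.86 to -1.46, limma adjusted p = 1.23e-09). Both libraries were set aside for their *Bin1* level, so this value describes the remaining libraries and is no independent test.

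The 3 highest *Bin1* levels among Homo mice were in Homo-M-0093, Homo-M-0097 and Homo-M-0109, whose mouse numbers are below 150. The other 7 Homo mice, all with higher numbers, had between 39.5 and 45.2 FPKM. The Het males of the lower number range, Het-M-0100 and Het-M-0108, had 120.2 and 130.1 FPKM, so the genotypes were apart in that range. In the higher range Het-F-0206, at 42.7 FPKM, lay among the Homo mice. Het-M-0199, at 51.8 FPKM, lay above the Homo mice of the higher range and below its other Het mice except Het-F-0206. Within the higher number range alone the difference was -1.47, with a limma adjusted p of 0.361, and a fit with that range as a further term gave -1.40 (limma adjusted p = 0.0145). The labels do not say what the number ranges stand for.

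**Figure D1:**
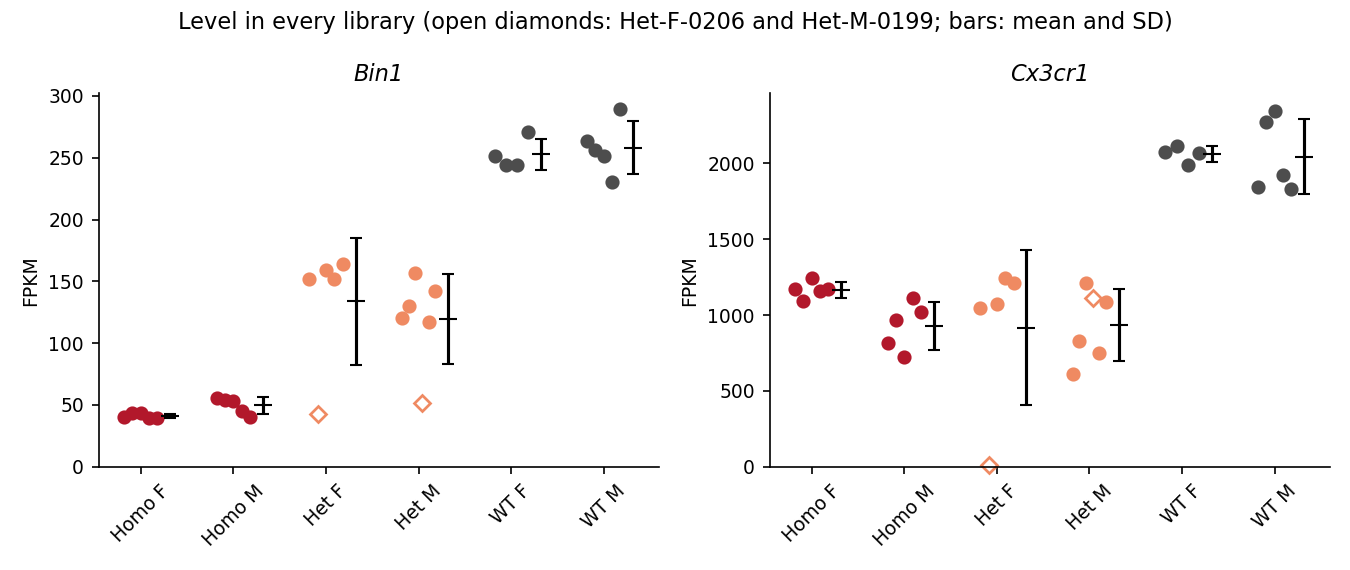
FPKM of *Bin1* (left) and *Cx3cr1* (right) in each library, by genotype and sex, with points for libraries, open diamonds for Het-F-0206 and Het-M-0199, and bars for the mean and SD of each group. For *Bin1*, both diamonds sit at 42.7 and 51.8 FPKM among the Homo libraries; for *Cx3cr1*, Het-F-0206 sits at 13.9 FPKM, below every other library.

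*Cx3cr1*, the fractalkine receptor whose locus carries Cre, did not pass the test between Homo and Het. In Homo libraries it was at 1048 ± 168 FPKM (SD, n = 10), in Het libraries at 926 ± 365 (SD, n = 11), and in WT libraries at 2051 ± 177.7 (SD, n = 9). Homo libraries ran from 726 through a median of 1103 to 1242 FPKM, and Het libraries from 13.9 through a median of 1071 to 1243. The lowest Het value belonged to Het-F-0206, and the next Het library had 610.0 FPKM, so that 20 of the 21 Cre-positive libraries lay between 610.0 and 1243. Het-M-0199 had 1112 FPKM, within the range of the rest. The log2 difference was 0.63 (95% interval -0.52 to 1.77, limma adjusted p = 1.00; exact permutation p = 0.425), and 0.06 (95% interval -0.24 to 0.36) without the 2 libraries.

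By its number of extreme genes, Het-F-0206 lay within the range of the other 20 libraries. For high genes it lay above the other females. Among the 11690 genes whose mean FPKM reached 1, it was more than 1.5-fold above every other library for 13 and below every other for 20, whereas the other libraries were the highest by that margin for 0 to 42 genes and the lowest for 4 to 48. The other female libraries were the highest for 0 to 3 genes and the lowest for 4 to 45. Genes named here were chosen after their values were seen. *Cyp4f18*, a fatty acid hydroxylase of myeloid cells, had 8.59 FPKM in Het-F-0206 and between 0.877 and 2.98 in the other 20. *Ccr1*, a chemokine receptor, had 42.0 FPKM against 8.28 to 21.1, and the adhesion molecule *Vcam1* had 24.1 against 5.22 to 11.5. *Pdcd1*, which encodes the inhibitory receptor PD-1, had 27.5 FPKM against 8.36 to 15.7.

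Beyond *Bin1*, no gene passed the test in Homo against Het with all libraries. At an unadjusted p below 0.05, limma gave 249 genes higher (1.47%) and 227 lower (1.34%) in Homo, together 476 (2.81%), whereas 848 would make 5% of the genes tested. The median difference over all genes was 0.0056, the 25th and 75th percentiles were -0.07 and 0.10, and the median standard error was 0.14. For 10632 genes (62.7%) the whole 95% interval lay within a 1.5-fold change in either direction. This share was 6.9% of the 5274 genes with a mean FPKM between 0.1 and 1, 74.4% of the 5198 between 1 and 10, 98.5% of the 5736 between 10 and 100, and 98.8% of the 756 above 100. A 1.5-fold difference was therefore bounded for most genes above 1 FPKM and for few below.

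**Figure D2:**
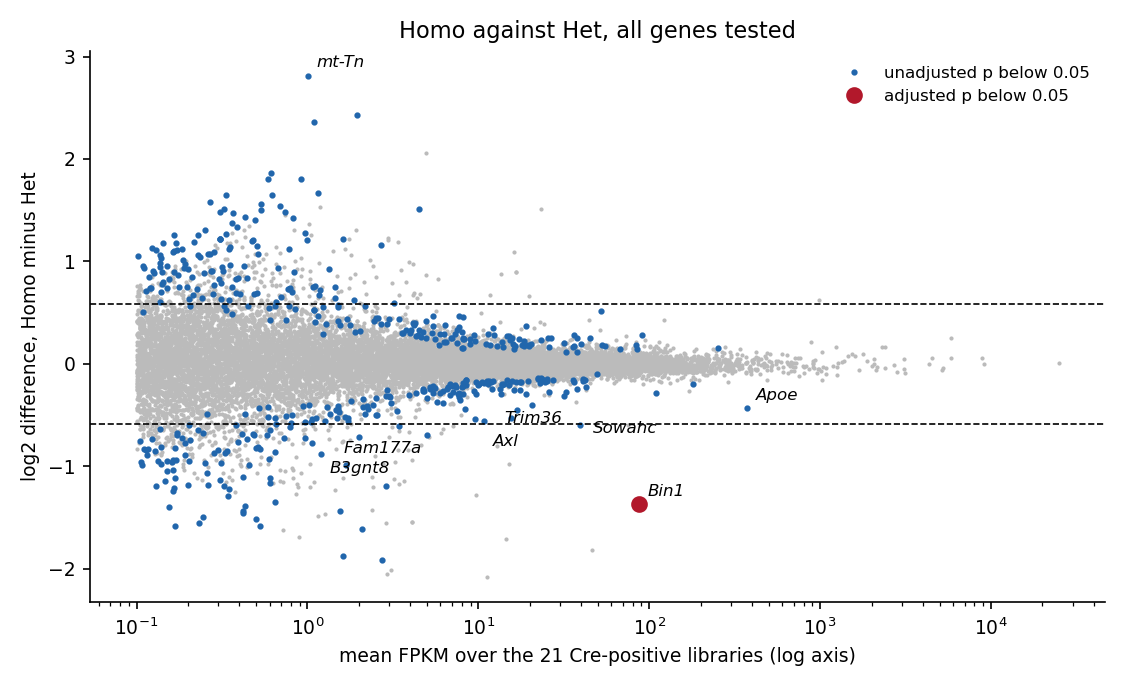
Log2 difference between Homo and Het (vertical axis) against the mean FPKM over the 21 Cre-positive libraries (horizontal log axis) for the 16964 genes tested, with blue points for an unadjusted p below 0.05, a red point for an adjusted p below 0.05 and dashed lines at a 1.5-fold change. *Bin1*, at -1.37, is the single red point, and the scatter narrows from 0.1 FPKM to 100 FPKM.

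The genes of smallest p after *Bin1* are given as values that did not pass. *Fam177a*, a little characterised gene, ran from 2.52 through a median of 3.76 to 5.79 FPKM in Homo and from 3.81 through a median of 6.16 to 7.48 in Het. The groups overlapped, and the difference was -0.69 (SE 0.13, limma adjusted p = 0.109). *Sowahc*, an ankyrin repeat protein gene, ran from 21.7 through a median of 27.6 to 45.1 FPKM in Homo and from 39.2 through a median of 47.0 to 52.4 in Het. The 5 male Homo libraries, between 21.7 and 28.2 FPKM, lay below all 6 male Het libraries, whereas the females overlapped. *Sowahc* was 1 of 30 genes (0.177%) whose male libraries did not overlap, and 84 genes (0.495%) did so in females. Its difference was -0.59 (SE 0.11, limma adjusted p = 0.169) over both sexes, -0.84 (limma adjusted p = 0.131) in males and -0.33 (limma adjusted p = 1.00) in females.

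WT libraries ran from 3.13 to 6.77 FPKM of *Fam177a* and from 17.8 to 56.3 FPKM of *Sowahc*, so that for both genes WT overlapped Homo as well as Het. *B3gnt8*, a glycosyltransferase gene, had 0.793 ± 0.235 FPKM in Homo (SD, n = 10) and 1.58 ± 0.562 in Het (SD, n = 11), a difference of -0.88 (SE 0.19, limma adjusted p = 0.516). *Emp3*, a membrane protein gene of the PMP22 family, ran from 9.83 to 15.2 FPKM in Homo and from 13.4 to 27.1 in Het, a difference of -0.53 (SE 0.13, limma adjusted p = 1.00).

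Other genes among the 20 of smallest p did not pass either. The zinc finger gene *Zfp946* had a difference of 0.36, *Fam114a1* of 0.29, *Tmem87a* of 0.38 and *Lypd6* of 0.57. *Mx1*, an interferon-induced GTPase, had -0.53 and *Axl*, a receptor kinase for apoptotic cells, -0.56. *Gm28809*, *Gm14292*, *Id1*, *Ldb2* and *Adcy4* had means of at most 0.321 FPKM in either group and differences between -1.58 and 1.26. The mitochondrial tRNA gene *mt-Tn* had the largest difference of the 20, 2.81 (SE 0.63, limma adjusted p = 0.581), and was at 0 in 9 Het and 2 Homo libraries.

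**Figure D3:**
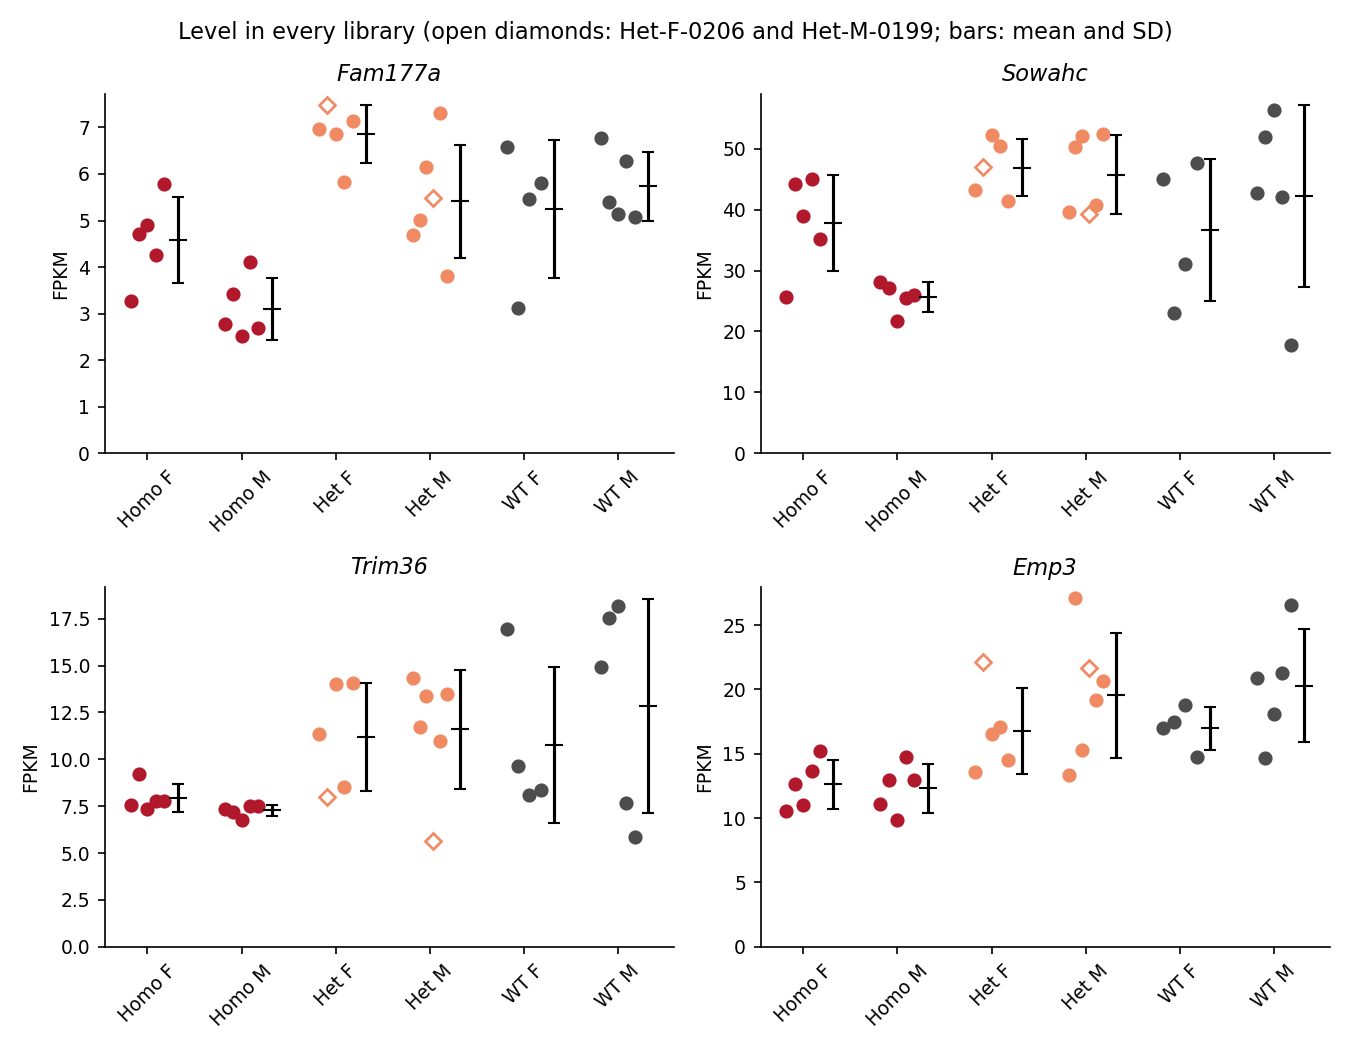
FPKM of *Fam177a*, *Sowahc*, *Trim36* and *Emp3* in each library, by genotype and sex, with points for libraries, open diamonds for Het-F-0206 and Het-M-0199, and bars for the mean and SD. Homo and Het overlap for all 4 genes, the male Homo libraries of *Sowahc* lie between 21.7 and 28.2 FPKM, and WT libraries of *Trim36* spread from 5.86 to 18.2 FPKM.

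*Trim36*, a ubiquitin ligase gene that lies 13.7 Mb from *Bin1* on chromosome 18 (46165300 to 46212607 on GRCm38), passed the test only without Het-F-0206 and Het-M-0199. It ran from 6.79 through a median of 7.51 to 9.20 FPKM in Homo and from 5.63 through a median of 11.7 to 14.4 in Het. Het-M-0199, at 5.63 FPKM, was the lowest of the 21 libraries, and Het-F-0206 was within the Homo range, as both were for *Bin1*. With all libraries the difference was -0.54 (SE 0.13, 95% interval -0.81 to -0.26, limma adjusted p = 1.00). Without both it was -0.69 (SE 0.10, 95% interval -0.89 to -0.49, limma adjusted p = 0.00418), and *Bin1* and *Trim36* were the 2 DEGs of 16978 genes tested (0.0118%). WT libraries ran from 5.86 to 18.2 FPKM and overlapped both groups.

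Genes near *Bin1* showed no common direction. Of 75 genes within 5 Mb, 0 passed the test, and the median difference was 0.0046. At an unadjusted p below 0.05 by limma, 3 were higher and 2 lower, against 1.47% and 1.34% of all genes. The 3 were *Stard4*, a sterol carrier gene, at 0.39, *Lrrtm2*, a synaptic adhesion gene, at 0.49 and *Tmco6* at 0.16. The 2 were *Slc35a4*, of the nucleotide sugar transporter family, at -0.17 and *Gm23639* at -1.55. *Gm23639* had a mean of 0 FPKM in Homo and of 0.442 in Het libraries. It reached the minimum of 0.1 only through Het libraries, so its place in this count and in the chromosome count below supports nothing on its own. Farther along the chromosome, *Prelid2* at 9.44 Mb had a difference of 0.35 (limma adjusted p = 1.00) and the transcript *C030005K06Rik* at 17.6 Mb had -1.39 (limma adjusted p = 1.00). Counted by chromosome, an analysis chosen after these values were seen, chromosome 18 had the highest share of genes with an unadjusted p below 0.05, 20 of 381 (5.25%), against 1.17% to 3.71% on the others. Without the 2 libraries the share was 21 of 378 (5.56%). Both counts include *Bin1* itself, whose difference was set by the genotypes compared. The 2 libraries were also set aside for their *Bin1* level. Neighbouring genes share a chromosome segment and are not independent.

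The study names 9 genes as raised in both sexes of Homo mice, chosen on these libraries, and none of them passed the test between Homo and Het. *Cst7*, which encodes the protease inhibitor cystatin F, had 44.5 ± 6.37 FPKM in Homo (SD, n = 10), 47.2 ± 15.2 in Het (SD, n = 11) and 9.51 ± 1.93 in WT (SD, n = 9). *Pdcd1* had 12.2 ± 2.16, 13.2 ± 5.08 and 3.11 ± 1.02 FPKM in the same order. Of the 9 genes, 0 passed the test between Homo and Het, 6 were below 0, and the median difference was -0.07. The whole 95% interval lay within a 1.5-fold change for 7, the exceptions being *Lox*, which encodes the collagen crosslinker lysyl oxidase, at 0.31 (95% interval -0.13 to 0.76) and *Gpr153*, an orphan receptor gene, at -0.21 (95% interval -0.66 to 0.25). *Sp100*, a nuclear body gene, had -0.17 (95% interval -0.32 to -0.02) with an unadjusted p of 0.0311 by limma and an adjusted p of 1.00.

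Library Het-F-0206 held the highest level of the 21 for 8 of these 9 genes, all but *Gpr153*. It had 85.3 FPKM of *Cst7*, 27.5 of *Pdcd1*, 6.10 of *Lox*, 68.9 of *Chst1*, 2.30 of *Chst2*, 5.75 of *Rxrg*, 32.9 of *Sp100* and 27.8 of *Hcar2*. Without it and Het-M-0199 the median difference of the 9 genes was 0.07, *Lox* was at 0.49 and *Cst7* at 0.09, and 0 of the 9 passed the test. The retinoid receptor gene *Rxrg* moved from 0.10 to 0.26, with an interval that then reached 0.60, past a 1.5-fold change, and the niacin receptor gene *Hcar2* from 0.03 to 0.17.

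The ESCRT subunit gene *Chmp4b* and 5 chaperone genes, which the study also names, had differences between -0.16 and -0.05, none past the test, with all 6 intervals within a 1.5-fold change over both sexes. The study names the chaperones from male mice. Their median with *Chmp4b* was -0.20 in males and 0.0072 in females, and *Hsp90ab1* had -0.32 (SE 0.19, limma adjusted p = 0.999) in males. *Chmp4b* ran from 2.36 through a median of 3.84 to 5.26 FPKM in Homo and from 1.61 through a median of 3.97 to 5.51 in Het. *Hspa8*, the constitutive cytosolic chaperone, had 393 ± 115 FPKM in Homo (SD, n = 10) and 395 ± 90.8 in Het (SD, n = 11), with 552 ± 87.0 in WT (SD, n = 9). Het-F-0257 held the highest Het level of all 6 genes. Of the Homo libraries, Homo-F-0234 held the highest level of *Hspa8*, *Hsp90aa1*, *Hsp90ab1* and *Dnajb1*, Homo-F-0238 of *Dnaja1* and Homo-F-0228 of *Chmp4b*. *Sema6d* and *Adgre4*, which stand in the study's gene list for female Het mice, had differences of 0.19 and 0.02, and both intervals lay within a 1.5-fold change.

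**Figure D4:**
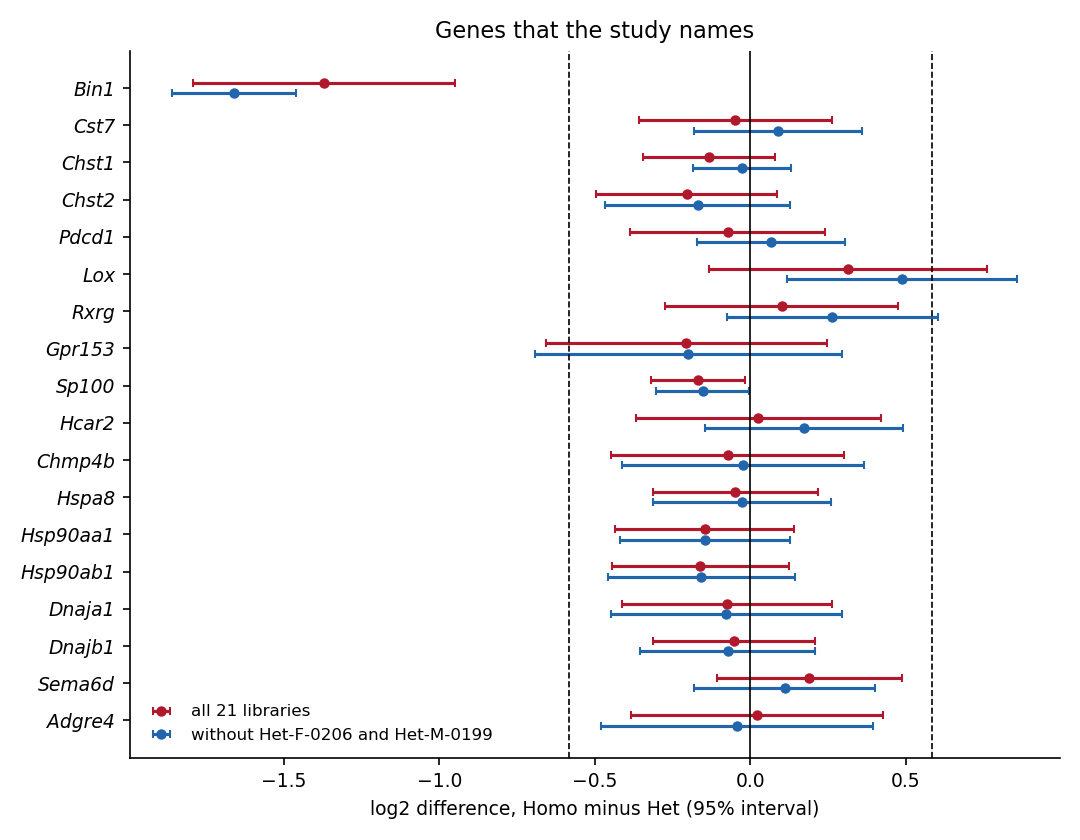
Log2 difference between Homo and Het with its 95% interval for *Bin1* and 17 genes that the study names, for all 21 libraries (red) and without Het-F-0206 and Het-M-0199 (blue), with dashed lines at a 1.5-fold change. The intervals of *Bin1* lie beyond the dashed line in both, and those of the other genes cross 0 except for *Sp100* in both and *Lox* without the 2 libraries.

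Genes called between all Cre-positive and WT libraries were set beside the comparison of Homo with Het, which shares the Cre-positive libraries. In a fit of all 30 libraries and 16897 genes, 106 genes were raised (0.627%) and 33 lowered (0.195%) in Cre-positive mice. For the 106 raised genes, whose median difference from WT was 0.99, the median between Homo and Het was 0.01, 51 were below 0, 7 had an unadjusted p below 0.05 (2.81% of all genes did), and 0 passed the test. The 95% interval lay within a 1.5-fold change for 58 of them (54.7%), against 62.7% of all genes. For the 18 lowered genes other than *Bin1* that were high enough to be tested between Homo and Het, the median was -0.14, 0 passed, and 5 intervals lay within a 1.5-fold change.

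Genes that work beside BIN1 came first among the gene lists. Of 14 N-BAR and dynamin genes tested, 0 passed, 7 were below 0, and the median was 0.0029, against 0.0056 over all genes. *Bin2*, a BIN1 relative of blood and myeloid cells and the highest of these in FPKM, had a difference of -0.02 at a mean of 391 FPKM. *Sh3glb1*, which encodes endophilin B, had -0.0017 at 147 FPKM, and *Dnm2*, the ubiquitous dynamin, -0.04 at 121 FPKM. All 24 genes of clathrin endocytosis and the early endosome had intervals within a 1.5-fold change, with a median of -0.0087. The same held for 62.7% of all genes, and for 98.5% of those between 10 and 100 FPKM. Counts of this kind, here and for the other lists, are to be read against these shares. The clathrin light chain gene *Clta* had a difference of 0.02, the heavy chain gene *Cltc* -0.01 and *Ap2m1*, of the AP-2 adaptor, -0.09. For 27 of 29 ESCRT and vesicle genes the interval lay within a 1.5-fold change; the tetraspanin genes *Cd81*, *Cd9* and *Cd63*, whose proteins are abundant in vesicles, had -0.06, 0.03 and -0.10, and *Flot2*, a lipid raft gene, had -0.28 with an unadjusted p of 0.0225 by limma (adjusted p = 1.00).

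All 22 homeostatic genes and all 26 lysosomal genes had intervals within a 1.5-fold change, with medians of 0.0062 and -0.04. The lowest mean level among them was 20.7 FPKM, of *Atp6v1a*. Of all genes, 98.5% between 10 and 100 FPKM and 98.8% above 100 had such intervals, so these counts are near the share at that level. The purine receptor *P2ry12* had a difference of 0.06, the protease inhibitor *Cst3* 0.0079 and the lysosomal protease *Ctsd* 0.0038. Of 28 disease-associated microglia genes, 22 were below 0 (against 48% of all genes), the median was -0.09, 20 intervals lay within a 1.5-fold change, and 0 passed the test. The 3 with an unadjusted p below 0.05 by limma, a threshold that 1.34% of all genes passed with a lower level in Homo, were *Axl* (-0.56), the galectin gene *Lgals3* (-0.50) and *Apoe* (-0.43), the lipid carrier gene, each with an adjusted p of 1.00.

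*Apoe* ran from 185 through a median of 296 to 531 FPKM in Homo and from 252 through a median of 417 to 586 in Het. *Axl* ran from 6.21 through a median of 8.09 to 10.95 FPKM in Homo and from 8.04 through a median of 11.7 to 26.8 in Het, with the highest value in Het-F-0206. Both genes overlapped between the groups. Without the 2 libraries the difference was -0.39 for *Apoe* and -0.48 for *Axl*, and the median of the list was -0.04.

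The remaining lists also had 0 members past the test. Of 25 genes of the type I interferon response, 20 had intervals within a 1.5-fold change; at an unadjusted p below 0.05 by limma, *Mx1* was at -0.53, *Irf9* at -0.14 and *Gbp6*, a guanylate-binding protein gene, at 0.73. In other lists the same held for the immediate early genes *Egr2* (-0.47) and *Klf2* (-0.56), the complement gene *C3* (-0.51) and the dynein light chain gene *Dnal1* (0.67). Of 18 LXR and RXR targets, 13 were below 0 (against 48% of all genes), and the median was -0.05. *Apoc1* was at -1.16 (SE 0.52) with a mean of only 0.602 FPKM, and *Plin2*, a lipid droplet gene, was at -0.18. Of 28 Alzheimer risk genes other than *Bin1*, 24 had intervals within a 1.5-fold change, among them the lipid receptor gene *Trem2* (-0.03) and the inositol phosphatase gene *Inpp5d* (-0.02). The medians of 18 MHC, 21 immediate early, 12 glucocorticoid response, 17 sterol synthesis, 22 cell cycle, 16 Myc and cell death, 19 cytoskeletal and Tau kinase, 21 inflammatory, 18 complement and phagocytic, and 27 chaperone genes were between -0.07 and 0.01. The complement genes *C1qa*, *C1qb* and *C1qc* had differences of -0.08, -0.04 and -0.0032, and the MHC class I gene *H2-K1* 0.0016. Those of 13 mitochondrial mRNAs and 9 nuclear retained lncRNAs were 0.05 and 0.06.

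**Figure D5:**
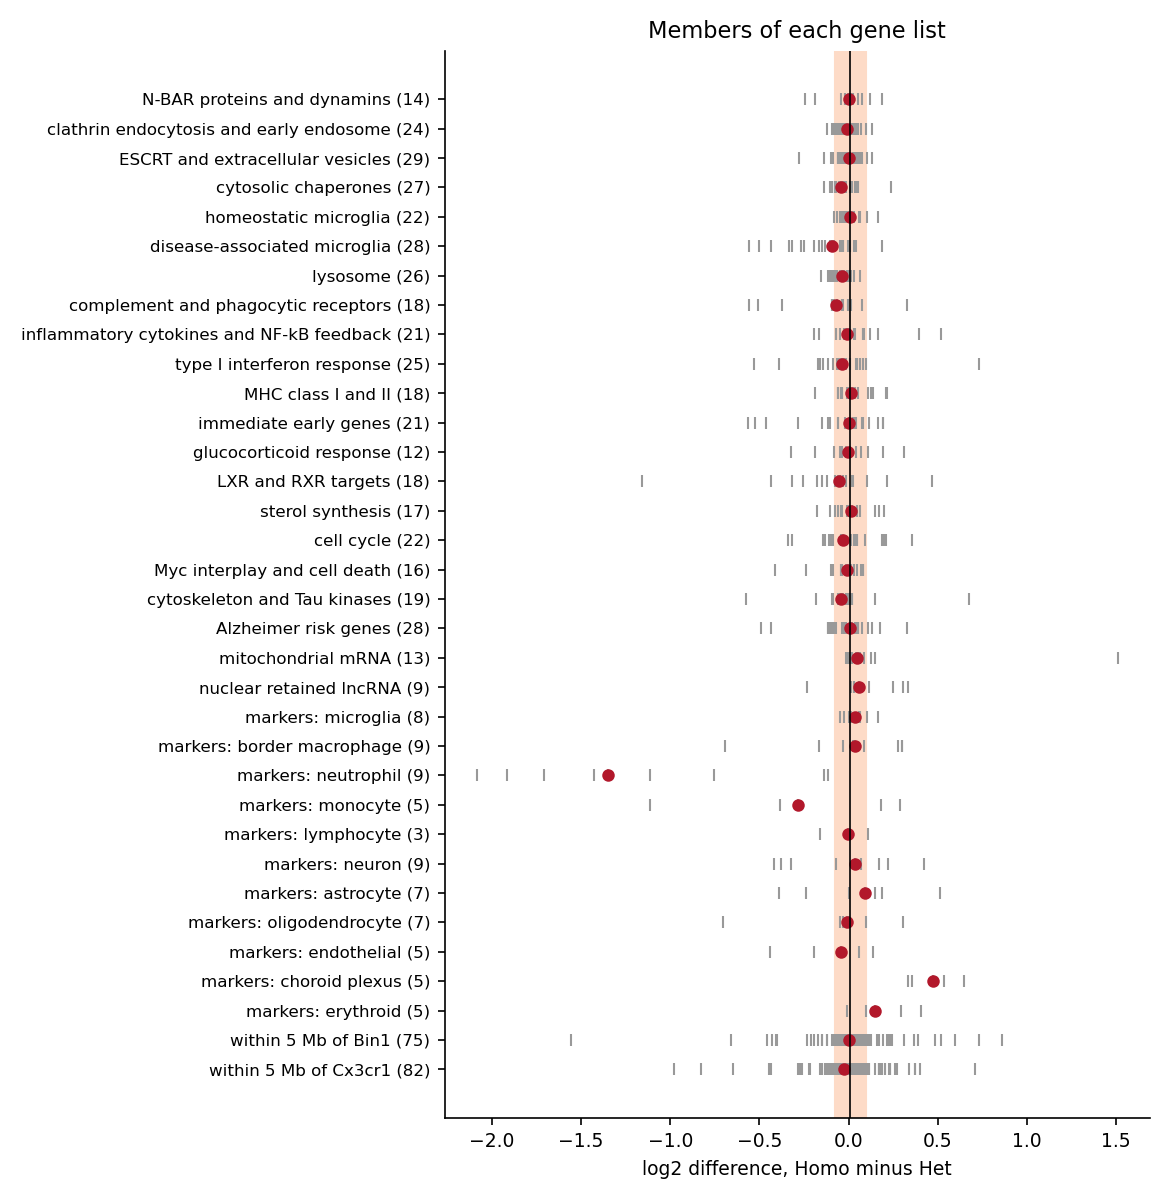
Log2 difference between Homo and Het (horizontal axis) for the members of each gene list, with ticks for genes, red dots for the median, the number of genes tested in parentheses, a line at the median of all genes and a shaded band from their 25th to their 75th percentile (-0.07 to 0.10). The medians of disease-associated microglia genes (-0.09) and of neutrophil (-1.35), monocyte (-0.28), choroid plexus (0.48) and erythroid (0.15) markers lie outside the band, and those of the other lists plotted within it.

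None of the markers of other cells passed the test. All 9 neutrophil markers tested were lower in Homo (against 48% of all genes), with a median of -1.35 and *S100a9* at -2.08 (SE 1.25). The median of the 9 was -1.71 in males and -0.49 in females. Markers of the same cells are not independent of each other. *Ngp* (-1.91) and *Lcn2* (-1.35), both granule genes, had an unadjusted p below 0.05 by limma, and 0 intervals lay within a 1.5-fold change. The summed FPKM of the 9 was between 0.0341 and 81.8 (median 8.58) in Homo and between 0.0437 and 195 (median 13.7) in Het. The groups overlapped, with the highest sum in a Het library. All 5 choroid plexus markers were higher in Homo, whereas 48% of all genes were lower. The median of these 5 was 0.48, and their sum was between 0.418 and 31.5 in Homo and between 0.113 and 28.0 in Het. In such bulk samples fewer cells of a type and less RNA per cell cannot be told apart. Medians were -0.28 for 5 monocyte, 0.04 for 9 border macrophage, -0.0059 for 3 lymphocyte, 0.04 for 9 neuron, 0.09 for 7 astrocyte, -0.0087 for 7 oligodendrocyte, -0.04 for 5 endothelial and 0.15 for 5 erythroid markers. Without Het-F-0206 and Het-M-0199 the erythroid median was -0.20, the neuron median -0.02 and the endothelial median 0.03, each of the opposite sign. The part of these cells in the differences above was not tested.

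By sex, 0 genes passed the test in males and 0 in females, whereas 620 (3.65%) and 324 (1.91%) had an unadjusted p below 0.05 by limma. *Bin1* was at -1.21 (SE 0.28, adjusted p = 0.999) in males and at -1.55 (SE 0.30, adjusted p = 0.261) in females; each sex held 1 of the 2 Het libraries with a Homo-like level. The interaction of sex with genotype gave 0 genes, with 461 (2.72%) at an unadjusted p below 0.05, and for *Bin1* it was 0.34 (SE 0.41, limma adjusted p = 1.00).

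Without the 2 libraries, *Bin1* was the 1 DEG in males (0.00589%; -1.42, limma adjusted p = 8.49e-07), and *Bin1* (-1.93, limma adjusted p = 1.01e-08) and *Smt3h2-ps4* (-3.25, limma adjusted p = 4.41e-05) were the 2 in females (0.0118%). Both libraries were set aside for their *Bin1* level, so the *Bin1* values by sex are no independent test either. *Smt3h2-ps4* had a mean of 0.164 FPKM over the 21 libraries and reached the minimum of 0.1 only through the 4 female Het libraries in which it was detected, so its call supports nothing on its own. It is a processed pseudogene, whose reads can be split with the gene it was copied from, and it was also the 1 gene called in the interaction (0.00589%). It was at 0.746, 1.35, 0.641 and 0.717 FPKM in 4 female Het libraries, at 0 in Het-F-0206 and in all male Het and all WT libraries, and at or next to 0 in all Homo libraries. The other genes of smallest p by sex did not pass, and most were near the detection limit, such as *Gm28809* and *Dpf1* in females and *Rpl9-ps4* and *Gm22698* in males. *Rbmx2*, an RNA-binding protein gene, had -0.42 in males and 0.40 in females, with an interaction of -0.83 (SE 0.21, limma adjusted p = 1.00).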

How the data were processed

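The study sequenced RNA of sorted microglia, and 30 libraries were grouped by the genotype and sex in their labels. Reads were aligned by the authors to mm10 with OSA4 and quantified with RSEM, and the deposited values are FPKM per gene, on a linear scale. The table has 47643 genes, of which 21508 were at 0 in all 21 Cre-positive libraries, and 6 further columns of samples that were not analysed here. No counts were used, so the DESeq2 test of the authors could not be repeated. Scaling was by median of ratios (genes whose mean FPKM reached 1), and log2 values with a pseudocount of 0.1 were fitted with limma 3.58.1 in R 4.3.3 on sex and genotype, with an intensity trend and Benjamini-Hochberg adjustment; fold changes of low genes are understated on this scale. The fits by sex and the interaction used 4 group means. The script was tested on simulated data. *Bin1* and *Cx3cr1* were also compared by two-sided exact permutation within sex (numpy 2.4.6, Python 3.11.15). Relative depth was taken from the step that 1 fragment makes in 6167 low genes. Gene positions and biotypes are those of GENCODE on GRCm38 (mm10).

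Libraries, genes and lists were chosen with earlier results of these data known, so lists are described by counts and medians, without a set test. The genes named are *Bin1*, *Cx3cr1*, those that the study names, the 20 of smallest p over both sexes, 5 for each sex and the interaction, and the 3 members of each list highest in mean FPKM, with the values needed here; members named for an unadjusted p below 0.05, and neighbours of *Bin1*, were chosen after their values were seen. The fits were repeated without the intensity trend, with array weights, with other scalings, filters and pseudocounts, on all 30 libraries, with the range of mouse numbers as a term or the higher range alone, with no fold threshold, and after leaving out libraries. The limma p-values set a difference against the spread between mice of a group, moderated over all genes. The permutation p-values come from exchanging genotypes within each sex. Results for 1 gene are not reported here.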

Additional observations from a re-analysis of the deposited data

Results flagged for a closer look

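In 160 groups of 5 or 6 libraries, over 41 genes, the highest or lowest library was checked for its gap to the rest by Dixon's criterion. The genes were *Bin1*, *Cx3cr1*, those that the study names and the 20 of smallest p over both sexes. The LXR and RXR targets *Apoe*, *Lpcat3* and *Mylip*, the highest of that list in mean FPKM, were also included. For normally spread values chance alone meets the criterion in about 1 group in 20, and 16 libraries stood apart. A group with 1 library above 0 and the rest at 0 always meets it, as for *Id1* in Het-F-0208 and *Ldb2* in Homo-M-0190. Values are FPKM, with the range of the other libraries of the same genotype and sex. Het-F-0206 gave 4 of them: it was low for *Bin1* (42.7 against 152 to 164) and for *Cx3cr1* (13.9 against 1048 to 1243), and high for *Cst7* (85.3 against 35.6 to 47.3) and for *Pdcd1* (27.5 against 9.61 to 11.8). Het-F-0257 gave 3, all chaperone genes: it was high for *Hsp90ab1* (257.6 against 143 to 156), *Dnaja1* (94.9 against 39.9 to 50.9) and *Dnajb1* (52.1 against 23.4 to 31.4). Het-M-0199, at 51.8 FPKM of *Bin1*, did not meet the criterion among the 6 male Het libraries.

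Among Homo libraries, *Gpr153* was high in Homo-F-0193 (1.21 against 0.713 to 0.830), *Chmp4b* in Homo-F-0228 (5.26 against 3.83 to 4.16), *Trim36* in Homo-F-0201 (9.20 against 7.34 to 7.77) and *Ldb2* in Homo-M-0190 (0.181 against 0), whereas *Mylip* was low in Homo-F-0238 (85.7 against 98.8 to 102). Among Het libraries, *C030005K06Rik* was high in Het-M-0203 (1.26 against 0.301 to 0.529), *Id1* in Het-F-0208 (0.106 against 0) and *Lpcat3* in Het-F-0220 (171 against 140 to 148), and *Ldb2* was at 0 in Het-F-0208 (against 0.312 to 0.356).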

How the results depend on the processing

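The direction of *Bin1* held under all 12 other settings and all 21 fits without 1 library. It passed in 9 of the settings and all 21 of the fits, with the adjusted p between 2.43e-05 and 0.0402 in the latter. It did not pass without a filter on low values (-1.37, adjusted p = 0.0954), without the intensity trend (-1.37, adjusted p = 0.0753) or with the higher mouse numbers alone (-1.47, adjusted p = 0.361), which left 0 DEGs over both sexes in each. Without Het-F-0206 and Het-M-0199 the counts were 2 over both sexes, 1 in males, 2 in females and 1 for the interaction. Males gave 1 DEG without scaling (*Sowahc*, -0.82, adjusted p = 0.0307); females gave 3 with array weights (*Bin1*, *Smt3h2-ps4* and *Gm28809*) and 2 with all 30 libraries (*Bin1* and *Smt3h2-ps4*). With a pseudocount of 1, 95.2% of intervals lay within a 1.5-fold change, since this pseudocount narrows the intervals of low genes. With array weights the median of the endothelial markers was -0.24. Over the 12 settings the median of the neutrophil markers was between -2.18 and -0.45 and that of the choroid plexus markers between 0.15 and 0.98, the ends being those with pseudocounts of 0.01 and 1, and that of the erythroid markers between -0.24 and 0.43. The cause of these changes was not tested otherwise.

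Leaving out 1 library gave 1 to 2 DEGs over both sexes, 0 to 1 in males, 0 to 2 in females and 0 to 1 for the interaction. *Fam177a* joined *Bin1* without Homo-F-0238 (adjusted p = 0.0476) or Homo-M-0189 (adjusted p = 0.0347). In males the gene was *Sowahc* without Het-M-0100 (adjusted p = 0.0496) or Homo-F-0193 (adjusted p = 0.0207), and *Bin1* without Het-F-0206 (adjusted p = 0.0333). Without Het-F-0206, females gave *Bin1* and *Smt3h2-ps4*, and the interaction gave *Smt3h2-ps4* (adjusted p = 0.00563). *Trim36* passed in 1 of the 12 settings and 0 of the 21 fits. No called value changed sign. No paired analysis was possible because the mouse numbers are unique to 1 library each and are not shared between groups. FPKM hold no counts, so no counting error could be given, and genes below 1 FPKM were seldom bounded.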
